A study of Mus musculus with 12 samples.

Results

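All knockouts of a mouse pancreatic tumour cell series were compared, as 1 group, with the wild type (WT) tumour cells. The comparison took 12 of the 12 libraries: 9 knockout libraries, 3 each labelled EgfrKO, Klf5KO and Smad4KO, and 3 WT libraries. The 3 knockout genotypes were given equal weight, and the genes described first are those for which all 9 knockout libraries lay on one side of all 3 WT libraries. All 4 groups were cells named 6649c2, implanted under the skin of mice, strain C57BL/6 by the labels, and sorted from the tumours that grew there. The gate of the sort, the age of the mice, the way the knockouts were made and the clonal origin of each line are left unstated by the labels. Clonal variation and loss of the targeted gene cannot be told apart here, and the 3 knockouts share 1 set of WT libraries. Nothing in the labels ties the libraries of a genotype to different tumours, and p-values then measure only how far these samples spread, which may be technical.

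Of the targeted genes, Egfr codes for the receptor of EGF and its relatives, Klf5 for an epithelial zinc finger transcription factor and Smad4 for the common mediator of TGF-beta and BMP signalling. Interferon-gamma signalling, in part through Irf1, raises antigen presentation genes, guanylate-binding and immunity-related GTPases and chemokines that draw T cells. Growth factor signalling through ERK raises immediate-early transcription factors, phosphatases that feed back on the pathway and chemokines that draw neutrophils. Lack of oxygen stabilises hypoxia-inducible factors, which raise glucose uptake, glycolysis and angiogenic factors.

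The values are TPM, each library's transcript share corrected for transcript length and scaled to the same total, so depth is unknown and a level is relative to the other genes of its library. Between 12592 and 13141 genes reached 1 TPM in a library, and 13662 genes with at least 1 TPM in at least 3 libraries were tested. Across genes, Pearson's r of log2(TPM + 1) was 0.980 to 0.988 within a genotype, 0.917 to 0.966 between knockout genotypes and 0.937 to 0.965 between knockout and WT libraries, where genes are not independent replicates. Libraries of a genotype were not equally alike. Over 1384 genes with a mean of at least 100 TPM, the SD of the log2 difference was 0.0843 to 0.110 between EgfrKO libraries and 0.108 between Smad4KO replicates 1 and 3. It was 0.145 to 0.204 between WT libraries, 0.188 to 0.284 between Klf5KO libraries, and 0.256 and 0.243 between Smad4KO replicate 2 and its partners. No pair of columns was identical, and without depth it cannot be tested whether the closest libraries differ by more than sampling noise.

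Egfr transcripts were lower in all knockouts, not in EgfrKO alone. Egfr (chromosome 11, 16752203 to 16913907 in GRCm38.p6) was at 12.3, 14 and 13.1 TPM in the 3 WT libraries, at 5.16, 3.77 and 3.94 TPM in EgfrKO, at 6.99, 8.35 and 5.45 TPM in Klf5KO and at 7.48, 10.03 and 6.35 TPM in Smad4KO. All 9 values lay below all 3 WT values (pooled log2 fold change -0.98 ± 0.14 SE, limma adjusted p = 0.000135; exact two-sided permutation p = 0.00455, the smallest that 9 against 3 libraries allow). The permutation p follows from the groups being separate and takes the 12 libraries as exchangeable whatever their genotype, so it adds no support. With genotype as a random block the adjusted p of Egfr was 0.63. Klf5 was at 97.1, 109 and 130.3 TPM in the 3 WT libraries and at 100.5, 87.8 and 93.2 TPM in the libraries labelled Klf5KO, which overlap, so its TPM does not check that label. Its pooled log2 fold change was -0.16 ± 0.08 SE (adjusted p = 0.106), and -0.26 without WT replicate 1 (adjusted p = 0.0193). Smad4 was at 70.9, 75.7 and 79.8 TPM in the 3 WT libraries, at 29.8, 33.4 and 28.9 TPM in Smad4KO and at 101, 90.1 and 96.1 TPM in Klf5KO, so its pooled value mixes opposite directions. As a check of the tissue label, chosen after its values were seen, the ductal keratin Krt19 was at 998, 1081 and 1096 TPM in the 3 WT libraries and at 714 to 1894 TPM (median 1694) in the knockouts.

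Antigen presentation and other interferon-induced genes were among the largest increases shared by the 3 knockouts, and growth factor-induced, hypoxia-induced and neutrophil-attracting genes were among the decreases. Of the genes tested, 6366 (46.6%) rose and 1556 (11.4%) fell in the pooled contrast, 58% in all (limma, adjusted p under 0.05). All 9 knockout libraries lay above all 3 WT libraries for 2565 genes (18.8%) and below them for 514 genes (3.76%). Among the 2565, 297 had a log2 fold change over 1 and 76 over 2, and among the 514, 164 fell by more than 1 and 17 by more than 2. The spread behind these tests is that between libraries of a genotype. In another fit libraries of a genotype were taken as correlated (genotype as a random block), with a correlation estimated at 0.775 and shared by all genes. This fit still counts 12 libraries, and WT is a single genotype, so it is not a test with genotypes as replicates. In it 77 genes (0.564%) rose and 10 (0.0732%) fell, and for all 87 of them the 9 knockout libraries lay on one side. Of the gene lists described here, MHC class II, interferon-inducible GTPases, class I and T cell-attracting chemokines had 2 or more members among them, 7 other lists had 1, and the remaining lists had 0.

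The excess of increases depends on the scale. The median log2 fold change of all genes was 0.19, at 0.14 for EgfrKO, 0.31 for Klf5KO and 0.10 for Smad4KO. After median-of-ratios scaling, which divides each library by its median ratio to the average library and moved that median by 0.18 to 0.00, 3023 genes (22.2%) rose and 3295 (24.2%) fell, and the share of increases among called genes went from 80.4% to 47.8%. The 9 knockout libraries then lay above WT for 1011 genes (7.41%) and below for 1415 (10.4%). All 514 genes below WT in deposited TPM stayed below, and 1010 of the 2565 above WT stayed above. Since scaling lowered knockout values against WT on average, the former count is no check of the decreases. Genes at the edge of the rule in deposited TPM had their nearest knockout and WT values almost equal, while other knockout libraries lay further off. Arpc5l, just inside, was at 44.1, 42.5 and 42.8 TPM in WT and 44.1 to 51.6 TPM (median 48) in the knockouts. Its adjusted p of 0.0153 became 0.061 without WT replicate 2 and 0.0566 without WT replicate 3. Coq6, just outside, was at 22.4, 17.9 and 20.8 TPM in WT and 22.4 to 30.4 TPM (median 25.2) in the knockouts. On the lower side Rack1 was just inside at 2139.5, 2158 and 2204 TPM in WT and 1710.0 to 2138 TPM (median 1940.2) in the knockouts. Rpl28 was just outside, at 4321, 4272 and 4356 TPM in WT and 2208 to 4273 TPM (median 3968) in the knockouts, whose lowest value was far below WT.

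**Figure D1:**
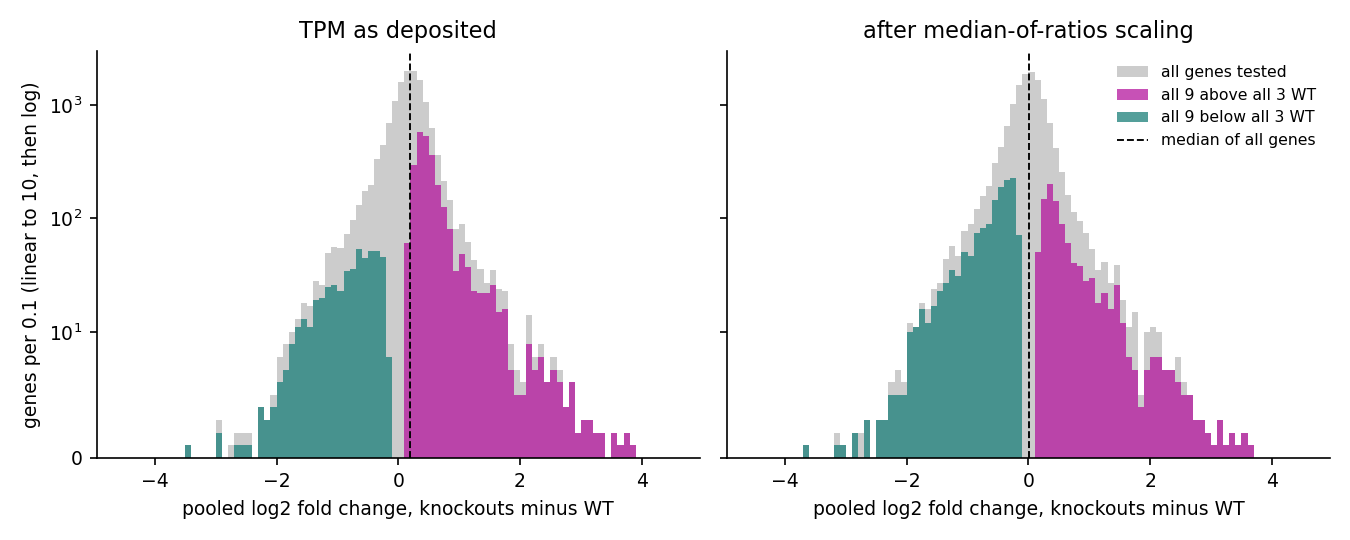
Number of genes (vertical axis, linear to 10 and then logarithmic) by pooled log2 fold change (horizontal axis) in deposited TPM (left) and after median-of-ratios scaling (right), for all genes tested (grey) and for genes with all 9 knockout libraries above (magenta) or below (green) all 3 WT libraries. The median of all genes (dashed) is at 0.19 on the left and at 0.00 on the right, while the far tails are present in both.

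MHC class II genes, which load and show peptides to CD4+ T cells, had the highest median change of the lists examined. All 8 tested of 10 listed rose, and for all 8 the 9 knockout libraries lay above WT, with a median log2 fold change of 3.34 against 0.19 for all genes. H2-Oa and H2-Ob did not reach the filter. Cd74, the invariant chain that escorts class II molecules, was at 279.7, 223 and 127 TPM in the 3 WT libraries and at 1593 to 3087 TPM (median 2643) in the 9 knockout libraries. The lowest knockout value was thus several times the highest WT value (mean 11.3 times WT, log2 fold change 3.53 ± 0.18 SE, adjusted p = 1.1e-07; genotype as block, adjusted p = 0.0233). H2-Aa, the alpha chain of the I-A molecule, was at 62.4, 54.9 and 26.5 TPM in WT and 440.5 to 734 TPM (median 613) in the knockouts. Its beta chain H2-Ab1 was at 72, 59.4 and 33.7 TPM in WT and 429.6 to 717 TPM (median 608) in the knockouts. H2-Eb1 was at 41.9, 35.9 and 16.2 TPM in WT and 285 to 558 TPM (median 410.1) in the knockouts. For all 3 chains WT replicate 3 had the lowest value and no knockout library came near WT. H2-DMa, a subunit of the peptide exchanger, was at 7.58, 8.09 and 5.55 TPM in WT and 44 to 71.8 TPM (median 55.2) in the knockouts (log2 fold change 2.82 ± 0.11 SE). Ciita, the coactivator that switches class II genes on, named after its values were seen, was at 1.62, 1.46 and 0.503 TPM in WT and 8.56 to 26.2 TPM (median 13.7) in the knockouts. H2-DMb2 was at 0.467, 0.982 and 0 TPM in WT and 7.45 to 24.8 TPM (median 12.9) in the knockouts, and reads may be divided uncertainly between it and its near copy H2-DMb1. H2-DMb2 reached the filter only through knockout libraries. All 8 passed with genotype as a block.

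Class II genes are also expressed by macrophages, dendritic cells and B cells, so these markers are given beside them. The summed TPM of the class II list was 223 to 496 TPM in WT and 2974 to 5469 TPM in the 9 knockout libraries. The summed TPM of 12 macrophage markers was 1442 to 2717 TPM in WT and 516 to 3128 TPM in the 9 knockout libraries, which overlap, and 0 of the 12 rose or fell in the pooled contrast (limma; 0 also with genotype as a block, and 0 at an unadjusted p under 0.05). In the Smad4KO libraries the macrophage sum was 1543, 516 and 1529.8 TPM, within or below the WT range. The class II sum there was 4669, 3647 and 4754 TPM. With the mean of the macrophage list as a covariate the log2 fold change of Cd74 was 3.50, against 3.53 without it, and without Smad4KO replicate 2 it was 3.56. The covariate averages these 12 markers alone, so the fit cannot speak to markers of the other cell types. Sums of dendritic cell markers were 6.30 to 7.98 TPM in WT and 6.77 to 22.5 TPM in the 9 knockout libraries, and sums of B cell markers were 1.41 to 2.59 TPM in WT and 2.74 to 7.10 TPM in the 9 knockout libraries. Of 4 tested dendritic cell markers 3 rose, of 2 tested B cell markers both rose, and of 6 markers of alternatively activated macrophages 4 rose (median 1.48). Of all genes 46.6% rose, and no member of these lists passed with genotype as a block. Of 8 dendritic and 6 B cell markers listed, the others did not reach the filter. Low markers can pass the filter through knockout libraries alone, which favours increases. The part of any of these cell types, macrophages among them, in the class II result was not tested. The covariate measures marker RNA and not cells, so it cannot settle that part. In bulk libraries fewer cells of a type and less RNA per cell cannot be told apart.

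**Figure D2:**
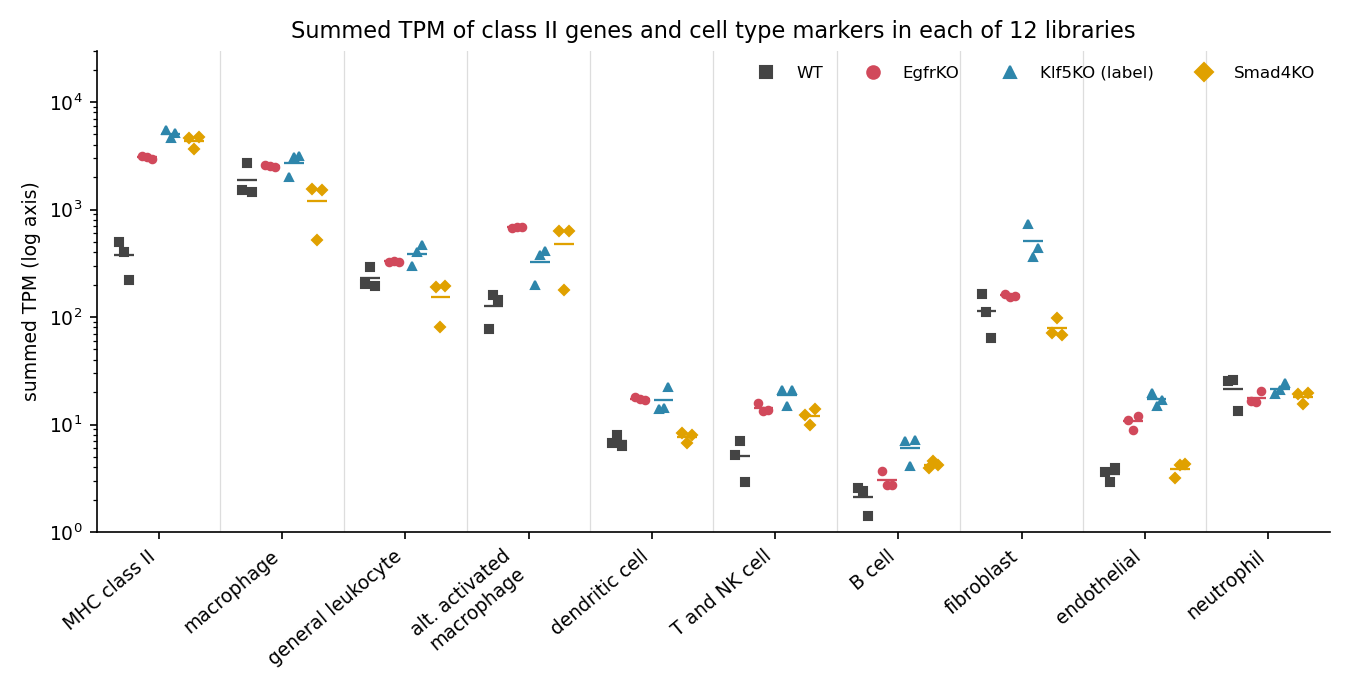
Summed TPM (vertical, logarithmic axis) of the class II list and of 9 cell type marker lists in each of the 12 libraries (points, in replicate order within a genotype) with genotype means (bars). Class II sums of all knockout libraries lie far above WT. Alternatively activated macrophage, T and NK cell and B cell sums of all knockout libraries also lie above WT. The other sums overlap WT, and macrophage and general leukocyte sums are lowest in Smad4KO replicate 2.

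Class I molecules and the machinery that supplies their peptides rose too in the pooled contrast. All 12 class I and peptide loading genes rose, 9 with all knockout libraries above WT (median 1.55), and 10 of the 12 passed after median-of-ratios scaling. Of the 12, 6 differed among the knockouts by the F test, with list medians of 1.43 in EgfrKO, 1.82 in Klf5KO and 1.46 in Smad4KO. With genotype as a block 3 of the 12 passed. B2m, the light chain of every class I molecule, was at 2082, 1752 and 1355 TPM in the 3 WT libraries and at 3988 to 4598 TPM (median 4200.2) in the knockouts. The 3 knockouts' log2 fold changes for B2m were 1.29, 1.33 and 1.33, among the 5 increases most alike in size. The heavy chain H2-K1 was at 1112, 905 and 657 TPM in WT and 3073 to 4054 TPM (median 3391) in the knockouts. H2-D1 was at 880.2, 781 and 583 TPM in WT and 1996 to 2714 TPM (median 2207) in the knockouts. Reads from related class I genes may be shared between them, and for both the groups were separate. Tap2, a subunit of the transporter that carries peptides to class I molecules, was at 15.8, 10.1 and 7.52 TPM in the 3 WT libraries and at 62.8 to 73.7 TPM (median 65.1) in the knockouts, 5.97 times WT on average. All 5 immunoproteasome genes rose (median 1.70), 2 of them differed among the knockouts and 1 passed with genotype as a block. The catalytic subunit Psmb9 was at 60.9, 42 and 24.5 TPM in WT and 240.5 to 302 TPM (median 278) in the knockouts, and Psmb10, another, was at 74.7, 63.6 and 51.3 TPM in WT and 184 to 229 TPM (median 208) in the knockouts. The activator subunit Psme2 was at 212, 184 and 164 TPM in WT and 263 to 396 TPM (median 368) in the knockouts. All 5 had every knockout library above WT in deposited TPM, and 3 of the 5 after scaling. The subunits of the constitutive proteasome core, which immunoproteasome subunits replace, had a median of 0.21, near that of all genes, and 13 of 14 rose in deposited TPM but 2 of 14 after scaling.

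The interferon-inducible GTPases, which act against intracellular microbes, rose without exception in all 3 knockouts. All 15 tested rose, and for all 15 the 9 knockout libraries lay above WT (median 2.67); 12 of the 15 also passed with genotype as a block. Gbp5 was at 3.57, 2.84 and 1.90 TPM in the 3 WT libraries and at 19 to 46.1 TPM (median 32.4) in the knockouts (log2 fold change 3.11 ± 0.14 SE, adjusted p = 5e-08). Tgtp2 was at 32.8, 25 and 18.6 TPM in WT and 121 to 232 TPM (median 146) in the knockouts, and reads may be split with its near copy Tgtp1. Gvin1 was at 9.82, 9.28 and 7.52 TPM in WT, 49.3, 49.5 and 38.9 in EgfrKO, 166, 114 and 99.7 in Klf5KO and 62.5, 62 and 52.2 in Smad4KO, and the knockouts differed (F test adjusted p = 4.53e-05).

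The promoters of these GTPase genes share a motif, and the list holds genes already known to be interferon-induced. Over the 250 bases before the RefSeq gene start in GRCm38.p6, the interferon-stimulated response element core (GAAA, any 2 bases, GAAA), searched on both strands, was present in 9 of the 9 GTPase genes with a promoter entry. It was present in 3.45% of the 10387 tested genes with an entry, in 41 of 209 genes (19.6%) with all 9 knockout libraries above WT and a log2 fold change over 1, and in 1.79% of the 112 genes below WT by more than 1. The core of the gamma-activated site, TTCNNNGAA, which can overlap the first, was in 6 of the 9 GTPase genes and 7.49% of all. The class II Y box, CTGATTGG on either strand, was in 2 of 5 class II genes with an entry and 6.14% of all. A match describes the letters and is not a bound site. Gbp2, Igtp and H2-Aa, chosen after matches and values were seen, are shown 5′ to 3′ along their own strand because each carries a motif close to the gene start, 59, 34 and 51 bases before it. Capitals mark the interferon-stimulated response element core in Gbp2 and Igtp and the Y box in H2-Aa, and 0 of the 5 class II genes carried the former.
Gbp2 (chr3:142620413-142620662, plus strand): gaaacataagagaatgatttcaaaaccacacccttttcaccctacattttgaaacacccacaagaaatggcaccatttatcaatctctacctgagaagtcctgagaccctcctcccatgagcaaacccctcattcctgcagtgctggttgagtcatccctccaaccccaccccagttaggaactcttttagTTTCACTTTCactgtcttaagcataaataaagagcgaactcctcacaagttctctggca
Igtp (chr11:58199306-58199555, plus strand): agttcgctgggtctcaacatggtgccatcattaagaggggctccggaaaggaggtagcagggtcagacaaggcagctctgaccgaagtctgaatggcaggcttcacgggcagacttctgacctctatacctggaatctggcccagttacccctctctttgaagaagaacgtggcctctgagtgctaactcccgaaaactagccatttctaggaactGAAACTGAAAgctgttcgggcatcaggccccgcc
H2-Aa (chr17:34287824-34288073, minus strand): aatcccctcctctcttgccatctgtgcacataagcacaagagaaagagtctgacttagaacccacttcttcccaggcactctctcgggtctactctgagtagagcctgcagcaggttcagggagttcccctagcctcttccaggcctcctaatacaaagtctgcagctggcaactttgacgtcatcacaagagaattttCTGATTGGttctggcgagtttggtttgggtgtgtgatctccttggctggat
Gbp2 was at 82.1, 67.9 and 47.8 TPM in the 3 WT libraries and at 331 to 649 TPM (median 368) in the knockouts. Igtp was at 42.8, 35.3 and 20.3 TPM in WT and 191 to 293 TPM (median 197) in the knockouts. For both, every knockout library lay above every WT library.

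Genes of the interferon pathway itself and its antiviral output had lower medians. Of 17 receptors and signalling genes 14 rose and 1 fell (median 0.58), and 1 passed with genotype as a block. The transcription factor Irf1 was at 69.1, 79 and 66.7 TPM in WT and 140.1 to 175 TPM (median 157) in the knockouts. Socs1, a feedback inhibitor of the pathway, was at 10.6, 11.2 and 10.5 TPM in WT and 20.9 to 41.6 TPM (median 34.8) in the knockouts. For both genes no knockout value reached down to a WT value. Of 28 antiviral genes 26 rose, 22 with all knockout libraries above WT (median 1.12), including the nucleotide hydrolase Samhd1 (log2 fold change 1.46 ± 0.10 SE), Oasl2 (1.59 ± 0.12) and Parp14 (1.73 ± 0.11). With genotype as a block 1 of the 28 passed. Ubd, an interferon-induced ubiquitin-like protein, was at 7.32, 4.84 and 3.24 TPM in the 3 WT libraries and at 61.2 to 113 TPM (median 78.2) in the knockouts, the third largest increase. The largest, Adgrg7, an orphan adhesion receptor, was at 1.04, 1.09 and 0.467 TPM in WT, 16.3, 14.3 and 14.2 in EgfrKO, 67, 48.8 and 56.2 in Klf5KO and 21.1, 15.4 and 16.9 in Smad4KO. The protease inhibitor Serpina3g was at 1.35, 0.702 and 0.666 TPM in WT and 9.57 to 30.8 TPM (median 18.4) in the knockouts.

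Chemokines split by the cells they draw. Of 8 tested T cell-attracting chemokines 7 rose and 0 fell, 4 with all knockout libraries above WT (median 1.30). Cxcl9, a ligand of CXCR3 on T cells, was at 11.9, 9.35 and 5.41 TPM in the 3 WT libraries and at 99.4 to 208 TPM (median 126) in the knockouts (mean 14.8 times WT, log2 fold change 3.77 ± 0.17 SE, adjusted p = 5.59e-08; genotype as block, adjusted p = 0.0106). Its relative Cxcl10 was at 39.1, 33.5 and 23.2 TPM in WT and 106 to 166 TPM (median 136) in the knockouts. Cxcl11, the other CXCR3 ligand of this family, was at 1.55, 1.65 and 0.626 TPM in WT and 6.15 to 11.3 TPM (median 7.77) in the knockouts. All 3 CXCR3 ligands were lowest in WT replicate 3 and had every knockout library above WT. Ccl5, which T cells also make, was listed at 2.80, 1.21 and 0 TPM in WT and at 8.26 to 38.2 TPM (median 16.6) in the knockouts. The neutrophil-attracting ligands of CXCR2 went the other way: all 5 tested fell, 2 with all knockout libraries below WT (median -0.95). Cxcl1 was at 73.8, 149 and 139 TPM in the 3 WT libraries and at 11.7 to 37.3 TPM (median 30.6) in the knockouts. Cxcl2 was at 68.5, 127 and 111 TPM in WT and 9.07 to 26.9 TPM (median 19.6) in the knockouts. WT replicate 1 had the lowest WT value of both and was still above every knockout library. Cxcl3 fell (-0.95 ± 0.20 SE) with groups that overlap, since Klf5KO replicate 3 at 18.6 TPM exceeded WT replicate 1 at 17.3. No CXCR2 ligand passed with genotype as a block (limma; 2 of 5 were lower at an unadjusted p under 0.05). Of the monocyte-attracting CC chemokines 4 of 8 fell and 0 rose, with Ccl2 at 69.3, 96.4 and 87 TPM in WT and 36.5 to 51.1 TPM (median 44) in the knockouts.

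Several cytokines that act on myeloid cells fell as well. Of 13 tested colony-stimulating and interleukin-6 family cytokines 7 fell, all 7 with every knockout library below WT, and 2 rose. Of all genes 11.4% fell, 3.76% had every knockout library below WT and 46.6% rose. With genotype as a block 0 of the 13 passed (limma; 4 were lower at an unadjusted p under 0.05). Csf2, which encodes GM-CSF, was at 26.8, 58.9 and 47.8 TPM in the 3 WT libraries and at 1.61 to 7.67 TPM (median 6.07) in the knockouts (mean 0.113 times WT, log2 fold change -2.92 ± 0.23 SE, adjusted p = 1.76e-06; genotype as block, adjusted p = 0.132). Lif was at 17.3, 20.6 and 19.8 TPM in WT and 8.28 to 15.8 TPM (median 10.3) in the knockouts. Il1a, an interleukin-1 cytokine, was at 5.16, 8.24 and 6.34 TPM in WT and 1.78 to 3.55 TPM (median 2.36) in the knockouts. Of 9 tested prostaglandin genes 4 rose and 2 fell, against 46.6% and 11.4% of all genes. All 9 differed among the knockouts, and 0 passed with genotype as a block (limma; 2 were lower at an unadjusted p under 0.05). Both genes that fell had all knockout libraries below WT. The 2 that fell encode the inducible enzymes of prostaglandin E2 synthesis. Ptgs2, the inducible cyclooxygenase, was at 32.2, 37.2 and 54 TPM in WT and 11.3 to 30.4 TPM (median 16.5) in the knockouts. Ptges, the terminal synthase, was at 49.1, 48.7 and 47.2 TPM in WT and 13.7 to 26.8 TPM (median 18.4) in the knockouts. Of 16 NF-kappaB genes 6 rose and 4 fell in deposited TPM, against 2 and 10 after scaling, and on both scales the inhibitor Nfkbie rose (0.65 ± 0.06 SE) and the inhibitor Nfkbia fell (-0.96 ± 0.10 SE). Of 10 checkpoint genes 5 rose and 1 fell, shares near the 46.6% and 11.4% of all genes, and 1 passed with genotype as a block. Ido1, which degrades tryptophan, was at 10.8, 7.39 and 6.22 TPM in WT and 37.7 to 53.5 TPM (median 49.3) in the knockouts. Cd274, which encodes PD-L1, was at 5.28, 5.93 and 5.01 TPM in WT and 9.24 to 15.4 TPM (median 12.2) in the knockouts. Lgals9, a galectin, was at 124, 128 and 99.7 TPM in WT and 179 to 250.4 TPM (median 225) in the knockouts. The knockout libraries were above WT for all 3.

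**Figure D3:**
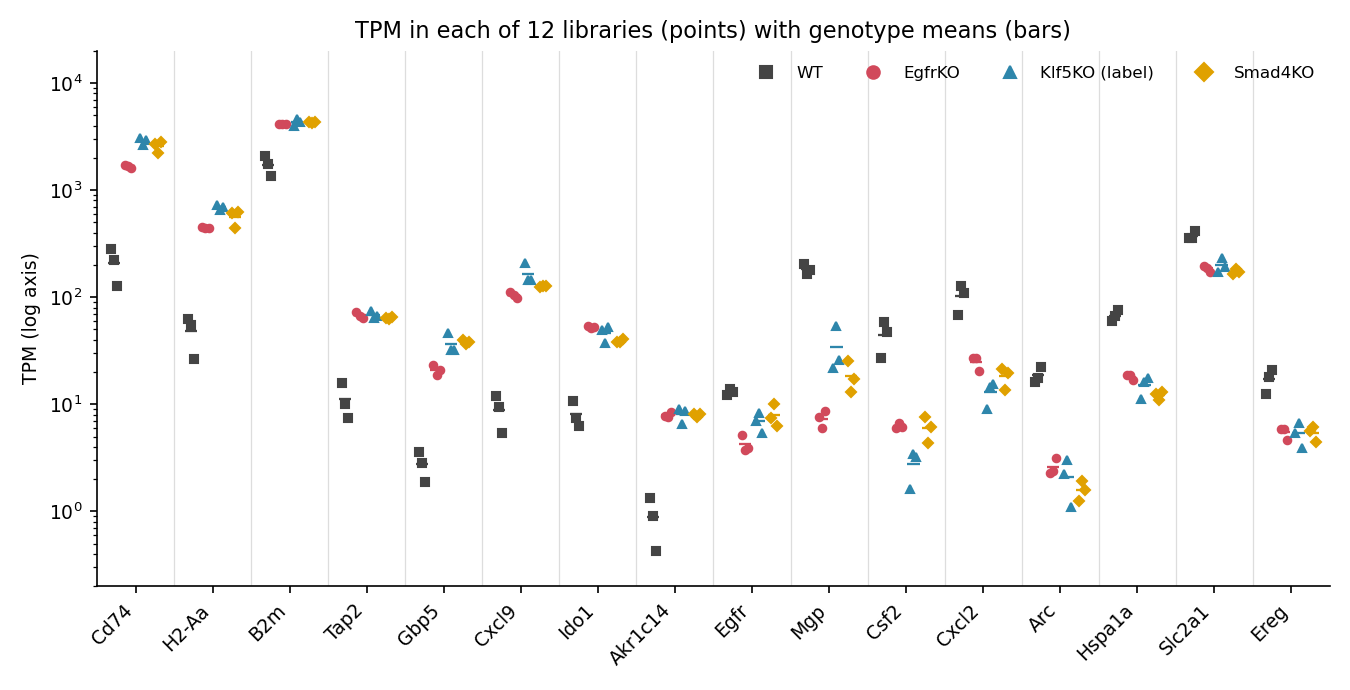
TPM (vertical, logarithmic axis) of 16 named genes in each of the 12 libraries (points, in replicate order) with genotype means (bars). For the 8 genes on the left every knockout library lies above every WT library, and for the 8 on the right, from Egfr to Ereg, every knockout library lies below.

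Most tested members of the EGF receptor family, of the immediate-early genes and of the ERK output fell in the pooled contrast. Of 12 tested ERBB receptors and ligands 7 fell and 2 rose, and 5 had all knockout libraries below WT. Areg, the ligand amphiregulin, was at 71.9, 82.2 and 86.6 TPM in the 3 WT libraries and at 14.8 to 30.3 TPM (median 26.1) in the knockouts. Ereg, epiregulin, was at 12.4, 18 and 20.8 TPM in WT and 3.94 to 6.66 TPM (median 5.62) in the knockouts, with log2 fold changes of -1.46, -1.502 and -1.47 in EgfrKO, Klf5KO and Smad4KO. Hbegf was at 288, 254 and 277 TPM in WT and 111 to 236 TPM (median 138) in the knockouts. Btc, betacellulin, was at 74.9, 73.8 and 81.6 TPM in WT and 36 to 66.3 TPM (median 49.6) in the knockouts. Both were highest among the knockouts in Klf5KO, where they were nearest to WT. All 19 immediate-early genes fell and 14 had all knockout libraries below WT (median -0.77). Egr1 was at 264, 321 and 336 TPM in the 3 WT libraries and at 111 to 201 TPM (median 144) in the knockouts. Maff, a small MAF-family factor, was at 131, 144 and 162 TPM in WT and 56.4 to 75 TPM (median 62.1) in the knockouts, and was the nearest of the list to the threshold with genotype as a block (adjusted p = 0.0584). Atf3 was at 106, 138 and 136 TPM in WT and 17.6 to 70.3 TPM (median 54.4) in the knockouts. Nr4a1, an orphan nuclear receptor, was at 27.9, 34.1 and 31.5 TPM in WT and 8.83 to 21.3 TPM (median 14.7) in the knockouts. For Atf3 and Nr4a1 the lowest values were those of Klf5KO. Arc, an activity-induced gene, was at 16.3, 17.8 and 22.1 TPM in the 3 WT libraries and at 1.09 to 3.14 TPM (median 2.25) in the knockouts (log2 fold change -2.69 ± 0.17 SE; genotype as block, adjusted p = 0.0479). Of 20 genes of ERK feedback and output 13 fell and 1 rose, and all 20 differed among the knockouts. The list's median was -0.22 in the pooled contrast and 0.14 in Klf5KO. The phosphatase Dusp5, which acts on ERK in the nucleus, was at 166, 177 and 203 TPM in the 3 WT libraries and at 64.1 to 97.9 TPM (median 66.8) in the knockouts, and was the single member of that list to pass with genotype as a block (adjusted p = 0.0347). Dusp4 was at 137, 153 and 197 TPM in WT and 56.3 to 115 TPM (median 65.2) in the knockouts. Ier3 was at 731, 861 and 963 TPM in WT and 174 to 364 TPM (median 256) in the knockouts. For Dusp4 the Klf5KO libraries were nearest to WT, and for Ier3 the EgfrKO libraries on average.

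Hypoxia-induced and glycolytic genes were lower as groups. Of 26 hypoxia-induced genes 22 fell and 1 rose, and 14 had all knockout libraries below WT (median -0.64). Their summed TPM was 3720.1 to 4411 TPM in WT and 1670.0 to 2640.2 TPM in the 9 knockout libraries, with no overlap. Slc2a1, the glucose transporter GLUT1, was at 355, 355 and 413 TPM in the 3 WT libraries and at 166 to 231 TPM (median 182) in the knockouts, 0.497 times WT on average (log2 fold change -1.01 ± 0.08 SE, adjusted p = 1.96e-06; genotype as block, adjusted p = 0.126). Pfkfb3, which raises the flux of glycolysis, was at 36.5, 39.1 and 43.7 TPM in WT and 12.2 to 19.6 TPM (median 17.9) in the knockouts. Bhlhe40, a repressor of the clock and of metabolism genes, was at 300.4, 324 and 332 TPM in WT and 121 to 234 TPM (median 203) in the knockouts. Of 18 glycolysis genes 14 fell and 2 rose, with 10 below WT in every knockout library (median -0.40). They made up 1.99% to 2.21% of all TPM in WT and 1.42% to 1.71% in the knockout libraries. Slc16a3, the lactate exporter, was at 114, 102 and 98 TPM in WT, 27.7, 24.7 and 25.6 in EgfrKO, 59.3, 69.96 and 68.8 in Klf5KO and 23.8, 26.9 and 27 in Smad4KO. Pgk1 was at 1012, 1136 and 1266 TPM in WT and 649 to 805 TPM (median 745) in the knockouts. Gpi1, glucose-6-phosphate isomerase, was at 501, 544 and 559 TPM in WT and 365 to 431 TPM (median 391) in the knockouts. For all 3 the groups were separate, and Slc16a3 differed among the knockouts (F test adjusted p = 1.32e-07). No member of either list passed with genotype as a block (limma; 12 hypoxia-induced and 10 glycolysis genes were lower at an unadjusted p under 0.05).

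The hypoxia response element core ACGTG, on either strand, was in the 250 bases before the start of 14 of 18 hypoxia-induced genes and 8 of 18 glycolysis genes with an entry, against 24.4% of all. It was in 33 of the 112 genes (29.5%) below WT by more than 1, a share near that of all genes, and both lists hold known hypoxia targets. These letters also form part of the E-box CACGTG. The promoters of Slc2a1 and of Ddit4, chosen after matches and values were seen, are shown with the motif in capitals, 36 and 187 bases before the gene start.
Slc2a1 (chr4:119108495-119108744, plus strand): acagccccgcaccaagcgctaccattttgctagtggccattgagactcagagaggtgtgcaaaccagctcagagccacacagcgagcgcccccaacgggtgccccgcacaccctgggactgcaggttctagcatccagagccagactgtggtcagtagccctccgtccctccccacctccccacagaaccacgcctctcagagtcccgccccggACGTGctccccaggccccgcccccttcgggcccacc
Ddit4 (chr10:59951771-59952020, minus strand): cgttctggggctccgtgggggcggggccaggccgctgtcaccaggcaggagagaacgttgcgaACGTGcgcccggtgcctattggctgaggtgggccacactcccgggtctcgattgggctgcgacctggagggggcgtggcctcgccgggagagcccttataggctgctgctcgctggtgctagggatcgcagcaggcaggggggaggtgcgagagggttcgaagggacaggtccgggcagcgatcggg
Ddit4, an inhibitor of mTORC1, was at 338, 343 and 381 TPM in the 3 WT libraries and at 166 to 273 TPM (median 213) in the knockouts.

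Stress genes moved apart from one another. Of 16 heat shock chaperones 9 fell and 3 rose, against 11.4% and 46.6% of all genes, and 3 had all knockout libraries below WT. The list medians were -0.42 in EgfrKO, 0.13 in Klf5KO and -0.44 in Smad4KO, and 15 of the 16 differed among the knockouts. Hspa1a, an inducible HSP70, was at 59.97, 66.5 and 75.4 TPM in the 3 WT libraries and at 10.9 to 18.7 TPM (median 16.2) in the knockouts (log2 fold change -2.11 ± 0.12 SE; genotype as block, adjusted p = 0.0347). Its near copy Hspa1b, with which reads may be split, was at 260.1, 283 and 366 TPM in WT and 77.8 to 166 TPM (median 128) in the knockouts. The small heat shock protein Hspb1 was at 786, 709 and 758 TPM in WT and 153 to 459 TPM (median 252) in the knockouts. Zfand2a, a heat- and arsenite-inducible gene, was at 46.8, 45.9 and 56.6 TPM in WT and 13.8 to 19.1 TPM (median 17.5) in the knockouts. Of 20 genes of Atf4 and the integrated stress response 7 rose and 7 fell. Atf4 itself was at 311, 339 and 348 TPM in WT and 181 to 254 TPM (median 233) in the knockouts. Ppp1r15a, the phosphatase subunit that ends the response, was at 50.1, 57.9 and 69.5 TPM in WT and 14.4 to 30.1 TPM (median 28.1) in the knockouts. Both were below WT in every knockout library. Of 16 Nrf2 and thioredoxin genes 11 rose and 2 fell in deposited TPM, but 3 rose and 3 fell after scaling. On both scales the glutathione synthesis genes Gclc (1.05 ± 0.05 SE) and Gclm (0.51 ± 0.05) rose and the heme oxygenase Hmox1 fell (-1.13 ± 0.14). Of 16 endoplasmic reticulum chaperones 12 rose and 1 fell, against 5 and 3 after scaling. Akr1c14, an aldo-keto reductase, was the increase most alike in the 3 knockouts, at 1.33, 0.906 and 0.430 TPM in the 3 WT libraries and 6.61 to 9.07 TPM (median 8.06) in the knockouts, with log2 fold changes of 2.28, 2.29 and 2.28. Chpt1, which makes phosphatidylcholine, was at 4.63, 6.54 and 4.47 TPM in WT and 13 to 17.7 TPM (median 13.8) in the knockouts.

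**Figure D4:**
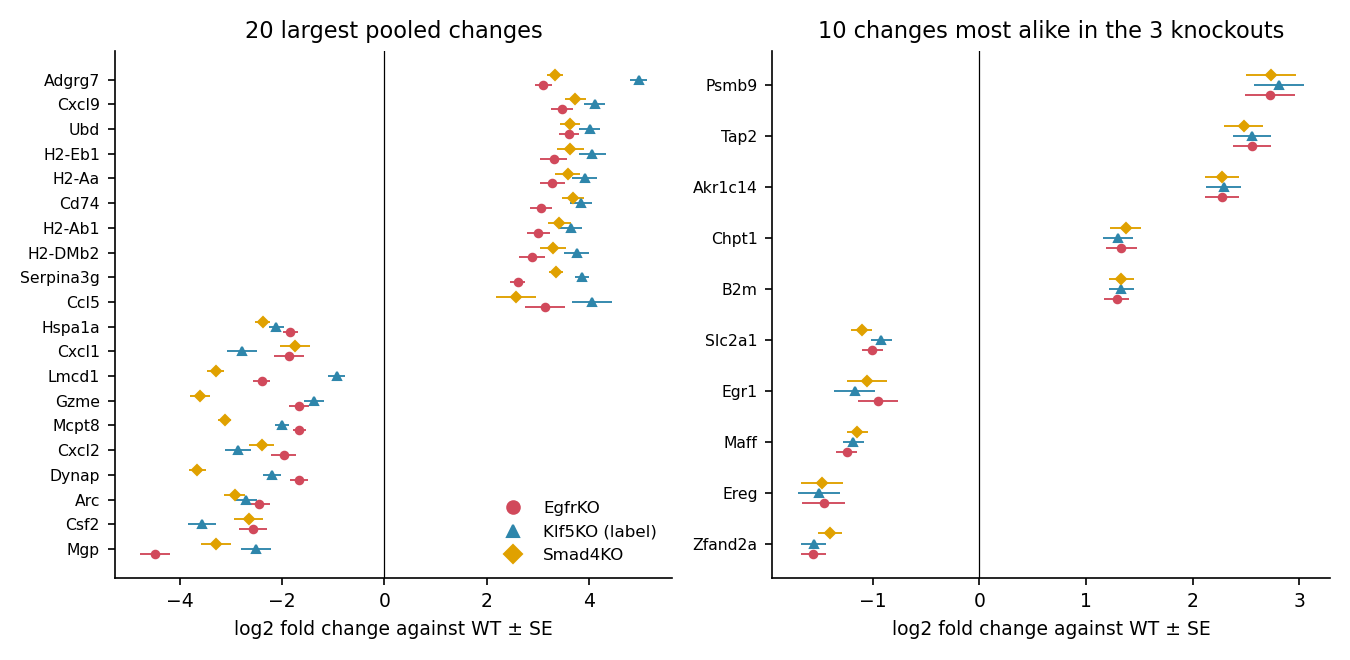
Log2 fold change against WT with its SE (horizontal axis) in EgfrKO, Klf5KO and Smad4KO for the 20 largest pooled changes with all 9 knockout libraries on one side (left) and for the 10 changes most alike in size (right). Every estimate lies on the side of its pooled value, and on the left the 3 knockouts lie apart for genes such as Adgrg7, Gzme and Lmcd1.

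Among the largest decreases were genes of no common list. Mgp, an inhibitor of calcification, was at 204, 166 and 181 TPM in WT, 7.54, 5.95 and 8.63 in EgfrKO, 22.1, 54.3 and 25.9 in Klf5KO and 25.3, 13 and 17.3 in Smad4KO (pooled log2 fold change -3.42 ± 0.24 SE, adjusted p = 8.67e-07; genotype as block, adjusted p = 0.129). Dynap was at 22.5, 39.6 and 33 TPM in WT and 1.37 to 9.73 TPM (median 5.51) in the knockouts. Lmcd1, a LIM domain protein, was at 33.5, 24.7 and 28 TPM in WT and 1.502 to 17.6 TPM (median 4.28) in the knockouts. Both were lowest in Smad4KO. Mcpt8, a protease known from basophils, was at 151, 157 and 142 TPM in WT and 13.9 to 49.8 TPM (median 37.3) in the knockouts. Gzme, a granzyme of cytotoxic lymphocytes, was at 31.8, 39.8 and 40.8 TPM in WT and 1.21 to 16 TPM (median 10.6) in the knockouts. The summed TPM of T and NK cell markers went the other way, at 2.93 to 7.04 TPM in WT and 9.90 to 21.1 TPM in the 9 knockout libraries. Of 8 tested T and NK markers 5 rose and 0 fell, against 46.6% and 11.4% of all genes. With genotype as a block 0 of the 8 passed (limma; 1 was higher at an unadjusted p under 0.05). Nkg7 and Cd3g were below 1 TPM in every WT library, so they reached the filter only through knockout libraries, which favours increases. Nkg7, a cytotoxic granule gene, was listed at 0, 0.115 and 0.374 TPM in WT and 1.15 to 5.72 TPM (median 2.56) in the knockouts. Cd3g, a chain of the T cell receptor complex, was listed at 0.237, 0.165 and 0 TPM in WT and 0.516 to 2.51 TPM (median 0.924) in the knockouts. The part of these lymphocyte transcripts in the interferon-induced and chemokine results was not tested.

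Growth and biosynthesis lists moved with the scale to different degrees. Of 26 genes of DNA replication and mitosis 21 rose and 1 fell, 18 with all knockout libraries above WT (median 0.42). After scaling 17 rose and 6 were above WT in every knockout library, and with genotype as a block 0 of the 26 passed (limma; 7 were higher at an unadjusted p under 0.05). Plk1, a mitotic kinase, was at 22.5, 21.9 and 19.6 TPM in WT and 29.1 to 40.4 TPM (median 33.6) in the knockouts. Birc5, a part of the chromosomal passenger complex, was at 72.3, 72.5 and 65.6 TPM in WT and 79.5 to 116 TPM (median 105) in the knockouts. Rrm2, a ribonucleotide reductase subunit, was at 64.6, 63 and 63.2 TPM in WT and 73.4 to 121 TPM (median 90.8) in the knockouts. The groups were separate for all 3 in deposited TPM, and Rrm2 overlapped WT after scaling. Of 83 cytosolic ribosomal protein genes 67 fell and 1 rose, 24 with all knockout libraries below WT, but the medians were -0.08 in EgfrKO, -0.57 in Klf5KO and -0.08 in Smad4KO. With genotype as a block 0 of the 83 passed (limma; 3 were lower and 1 higher at an unadjusted p under 0.05). They took 20.6% to 21% of all TPM in WT and 13.1% to 20.3% in the knockout libraries. Rps6 was at 2381, 2219 and 2368 TPM in WT and 1364 to 1733 TPM (median 1611) in the knockouts. Of 78 mitochondrial ribosomal protein genes 51 rose and 1 fell in deposited TPM but 5 rose and 6 fell after scaling. With genotype as a block 0 of the 78 passed (limma; 4 were higher at an unadjusted p under 0.05). Of 25 genes of oxidative phosphorylation 18 rose and 0 fell but 4 rose and 1 fell after scaling. Of 24 cholesterol and fatty acid genes 5 rose and 4 fell, against 0 and 11 after scaling.

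Genes of the TGF-beta pathway, of which Smad4 is a part, did not move alike in the knockouts. Of 20 TGF-beta pathway genes and targets 12 fell and 4 rose in the pooled contrast, 3 with all knockout libraries below WT. The list medians were -0.28 in EgfrKO, 0.25 in Klf5KO and -0.47 in Smad4KO, 17 of the 20 differed among the knockouts, and 0 passed with genotype as a block (limma; 2 were lower at an unadjusted p under 0.05). Smad7, the inhibitory SMAD, was at 56.3, 61.4 and 66 TPM in WT and 34.7 to 50.6 TPM (median 45.4) in the knockouts. Tgfb1 had log2 fold changes of -0.39 in EgfrKO, 0.14 in Klf5KO and -0.88 in Smad4KO, and its pooled value was -0.38 ± 0.04 SE. Of 5 tested BMP targets 1 rose and 0 fell.

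For lineage and matrix genes the pooled value mostly averaged unlike knockouts. By the F test among knockouts, 9660 genes (70.7%) differed, as did 1567 (61.1%) of the 2565 genes above WT and 343 (66.7%) of the 514 below. Against WT taken singly, 31.3% of genes rose and 12% fell in EgfrKO, 55.2% and 11.1% in Klf5KO, and 32.2% and 17.4% in Smad4KO. In 2 knockouts 1680 genes (12.3%) were called in opposite directions against WT. Epcam, an epithelial adhesion molecule, was at 11.4, 14.6 and 14.6 TPM in WT, 1.35, 1.36 and 1.20 in EgfrKO, 0.679, 0.314 and 0.624 in Klf5KO and 40.7, 41 and 36.8 in Smad4KO. Its pooled log2 fold change of -1.47 ± 0.10 SE describes none of the 3, and its mean TPM over the knockouts was 1.02 times WT. S100a6, a calcium-binding protein, was at 4372, 4436 and 4435 TPM in WT, 5738, 5581 and 5494 in EgfrKO, 2471, 3277 and 2806 in Klf5KO and 4747, 4814 and 4621 in Smad4KO, and its pooled log2 fold change was -0.07 ± 0.07 SE (adjusted p = 0.405). Cdh1, E-cadherin, rose in all 3, at 154, 175 and 169 TPM in WT, 279, 271 and 253 in EgfrKO, 283, 221 and 225 in Klf5KO and 339, 379 and 336 in Smad4KO. Reg3b, an antimicrobial lectin, was at 97.2, 77 and 54.9 TPM in WT, 11.7, 10.9 and 10.7 in EgfrKO, 0.637, 0.775 and 1.21 in Klf5KO and 81.1, 78.8 and 75.8 in Smad4KO, where reads may be shared with Reg3g. Of 16 epithelial genes 9 rose and 4 fell, with medians of 0.22 in EgfrKO, -0.37 in Klf5KO and 0.93 in Smad4KO, and of 22 gastric and mucosal genes 13 rose and 3 fell, with medians of 0.31, -0.32 and 1.37. These counts stand beside 46.6% of all genes called higher, and after scaling 3 epithelial and 9 gastric genes were called higher. For collagens, of which 6 of 17 rose and 3 fell, the medians were 0.14, 1.45 and -0.69. Fibroblast markers moved with them, with list medians of 0.21, 1.24 and -0.51, and their summed TPM averaged 113 TPM in WT and 514 TPM in Klf5KO. Their part in the collagen and Fn1 values was not tested. With the mean of the fibroblast list as a covariate, 5383 genes differed among the knockouts in place of 9660. Fn1, fibronectin, was at 934, 986 and 1174 TPM in WT, 415, 408 and 394 in EgfrKO, 1370.5, 1386 and 1251 in Klf5KO and 509, 546 and 456 in Smad4KO, and of 17 genes of mesenchymal transition 9 fell and 3 rose. Of 9 squamous and basal-like genes 5 fell and 0 rose.

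Complement genes were higher in the pooled contrast, and matrix protease genes were mixed. Of 15 complement genes 10 rose and 0 fell, against 46.6% and 11.4% of all genes (median 0.80). For 7 all knockout libraries lay above WT, against 18.8% of all genes. Of the 15, 14 differed among the knockouts, and 0 passed with genotype as a block (limma; 7 were higher at an unadjusted p under 0.05). C3, the central component, was at 49.8, 49.5 and 32.5 TPM in WT, 122, 119 and 115 in EgfrKO, 216, 194 and 213 in Klf5KO and 629, 631 and 592 in Smad4KO. C1s1, a protease of the classical pathway, was at 5.29, 4.08 and 2.14 TPM in WT and 11.7 to 46.5 TPM (median 26) in the knockouts. Of 21 matrix proteases and inhibitors 12 fell and 5 rose, but 4 were below and 4 above WT in every knockout library. All 21 differed among the knockouts, with list medians of -0.29 in EgfrKO, 0.16 in Klf5KO and -0.80 in Smad4KO. Mmp3, stromelysin-1, was at 41.3, 37.5 and 47 TPM in WT, 7.70, 7.79 and 8.52 in EgfrKO, 20.9, 26 and 28.7 in Klf5KO and 7.31, 7.95 and 7.48 in Smad4KO. Plat, tissue plasminogen activator, was at 369, 369 and 408 TPM in WT and 208 to 264 TPM (median 240.1) in the knockouts.

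**Figure D5:**
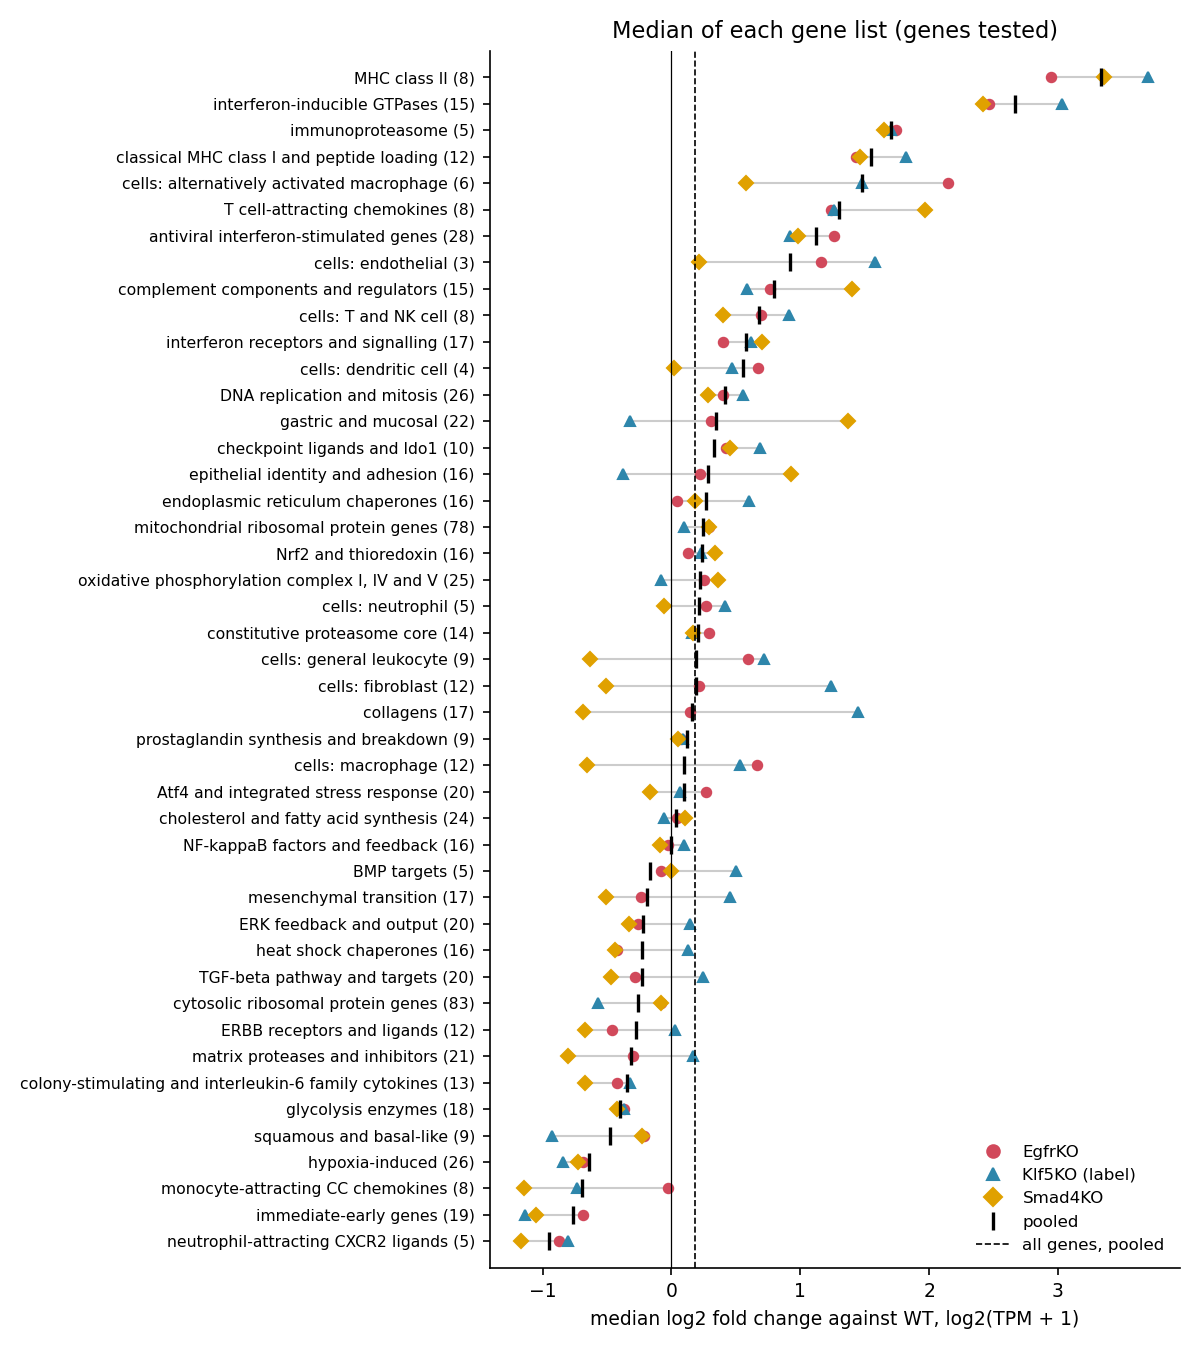
Median log2 fold change against WT (horizontal axis) of each gene list with at least 3 tested members (number in brackets), in each knockout (coloured symbols) and in the pooled contrast (black bar), with the median of all genes (dashed line at 0.19). Class II, GTPase, immunoproteasome and class I lists lie right of the line in all 3 knockouts, hypoxia, glycolysis, immediate-early and CXCR2 ligand lists lie left of it, and gastric, epithelial, collagen and macrophage lists spread across it.

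Markers of the other cell types that a sorted tumour sample could hold moved less evenly. Of 9 general leukocyte markers 2 rose and 1 fell, and their summed TPM was 194 to 291 TPM in WT and 80.5 to 470.3 TPM in the 9 knockout libraries. Markers of alternatively activated macrophages summed to 77.4 to 159 TPM in WT and 177 to 690 TPM in the 9 knockout libraries. Of these 6 markers 4 rose, 2 with all knockout libraries above WT. Retnla among them was at 12.5, 36.7 and 35.6 TPM in WT, 392, 435 and 431 in EgfrKO, 51.1, 115 and 104 in Klf5KO and 468, 57.5 and 470.3 in Smad4KO, so the Smad4KO value rests on replicates 1 and 3. Fibroblast markers summed to 64.1 to 162 TPM in WT and 67.9 to 739.8 TPM in the 9 knockout libraries, and were highest in Klf5KO, and 4 of 12 rose and 0 fell in the pooled contrast. Endothelial markers summed to 2.94 to 3.90 TPM in WT and 3.20 to 19.6 TPM in the 9 knockout libraries, and 3 of 3 tested rose, against 46.6% of all genes. The others of the 7 listed did not reach the filter, which low markers can pass through knockout libraries alone. With genotype as a block 0 of the 3 passed. Neutrophil marker sums were 13.4 to 25.9 TPM in WT and 15.6 to 24.4 TPM in the 9 knockout libraries, and 1 of 5 tested rose and 2 fell. Erythroid sums were 46.3 to 121 TPM in WT and 44.7 to 109.8 TPM in the 9 knockout libraries. The highest skeletal muscle sum was 2.30 TPM and the highest adipocyte sum 20.4 TPM. Every T and NK, dendritic and endothelial marker in the table was above 0 in at least 1 library. With the mean of the general leukocyte or of the macrophage list as a covariate, 6345 or 6514 genes rose, close to the 6366 without one. With that of the fibroblast list 3899 rose. The fibroblast list was highest in Klf5KO, so its covariate cannot be told apart from genotype there. The part of any of these cell types in the results above was not tested.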

How the data were processed

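RNA was extracted with an RNeasy micro kit from sorted cells and the libraries were made and sequenced by Novogene, per the labels' protocols. The deposited table holds TPM per gene, which the authors computed; the submitters' processing notes name Salmon and mm10, with no version. Column names gave each library its genotype and replicate number. Genes with at least 1 TPM in at least 3 libraries were fitted with limma 3.58.1 in R 4.3.3 on log2(TPM + 1), so fold changes of low genes are understated. The model had 4 genotype means and a trend in the spread, the contrast was the mean of the 3 knockouts minus WT, and Benjamini-Hochberg adjustment ran over all 13662 genes. An F test compared the knockouts. Both were tested on simulated data. Because the replicate numbers did not pair the libraries, no block was used. Members and lists were chosen with earlier results of these data known, so sums over lists carry no p. Genes were named by a rule: the 3 targets, the 10 largest increases and 10 largest decreases with all knockout libraries on one side and a mean of at least 5 TPM, the 5 per direction most alike in the knockouts, the 5 most abundant called in opposite directions, up to 3 per list by adjusted p, the 2 most abundant of each cell type list, and those nearest the edge of the rule. Not all are described, and some are not reported here. Others (H2-DMb1, Tgtp1 and Reg3g as near copies, and those said so in the text) were chosen after their values were seen. Promoter sequences are from RefSeq.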

Additional observations from a re-analysis of the deposited data

Results flagged for a closer look

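In 8 of 133 groups of 9 knockout libraries examined, 1 library stood apart from the other 8, where chance flags about 1 in 20 groups. In 6 of them it was the highest value and belonged to Klf5KO replicate 1, whose TPM was 208 for Cxcl9, 649 for Gbp2, 293 for Igtp, 38.9 for Parp14, 94.8 for Gclm and 179 for Xdh. The medians of the 9 knockout libraries were 126 for Cxcl9, 368 for Gbp2 and 197 for Igtp. Klf5KO replicate 2 was highest for Mgp at 54.3 TPM and for Slc2a1 at 231 TPM, both below every WT library.

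In 7 of the named genes that are described here the difference from WT was called in opposite directions in 2 knockouts. Of these, S100a6 was named for that trait. The log2 fold changes of the 3 knockouts spanned 4.72 for Epcam, 4.43 for Reg3g, 1.72 for Fn1, 1.61 for Smad4, 1.31 for Krt19, 1.02 for Tgfb1 and 0.984 for S100a6. Of 104 named genes with all 9 knockout libraries on one side of WT, 66 differed among the knockouts by the F test (limma, adjusted p under 0.05).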

How the results depend on the processing

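The direction of the interferon-induced, class I, class II, CXCR2 ligand, immediate-early and hypoxia lists held on deposited and on scaled TPM. Scaling lowered knockout values against WT on average, so for the lists that fell it is no check of direction. Counts over all genes depended on the scale and on how genotype entered the fit. TPM are relative, depth is unknown, and 3 WT libraries serve every comparison.

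Against 6366 genes called higher and 1556 lower, median-of-ratios scaling gave 3023 and 3295 and quantile normalization 2958 and 2921. Genes with all 9 knockout libraries above or below WT numbered 1011 and 1415 after the first and 970 and 1114 after the second. A minimum fold change of 1.5 gave 398 and 200 calls, 2 groups without genotype 2161 and 484, and genotype as a random block 77 and 10. The fibroblast covariate gave 3899 higher, with 5383 genes differing among knockouts in place of 9660. Without the Klf5KO libraries 1437 genes lay below WT and 4580 differed between the other 2 knockouts. Without the Smad4KO libraries 4025 lay above. Leaving out 1 library gave 5178 to 6522 higher, 1243 to 1582 lower, 2598 to 3121 above, 520 to 645 below and 8944 to 9588 differing. The cause of these shifts was not tested, apart from the smaller number of libraries where some were left out.

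Lists with most tested members called numbered 20 higher and 13 lower. Those higher numbered 11 after median-of-ratios scaling, 13 after quantile normalization, 5 with the minimum fold, 7 with 2 groups and 2 with genotype as a random block. Those lower numbered 0 with the minimum fold, 4 with 2 groups, 0 with genotype as a random block, 6 with the fibroblast covariate and 7 without Smad4KO. Without 1 library they numbered 14 to 20 and 8 to 13, the lowest count of lower lists being that without WT replicate 2 or 3. When the EgfrKO libraries were averaged to 1 and Smad4KO replicates 1 and 3 to 1, an alternative chosen after seeing the data, 5656 genes were higher, 1303 lower, and 8 lists lower.

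Without small RNA models and the 20 most abundant genes, differences of summed TPM (knockouts minus WT) went from 3791 to 4673 for class II, 7369 to 8964 for class I, -30782 to -34582 for ribosomal proteins and -1778 to -2315 for hypoxia. They went from 369 to 453 for alternatively activated macrophages, 7.02 to 8.44 for dendritic cells, 10.03 to 12.2 for T and NK cells, 7.11 to 8.67 for endothelial and 5.65 to 6.91 for adipocyte markers. Leaving out 1 library, the dendritic difference was 6.10 to 7.52 and that of alternatively activated macrophages 344 to 419.97, highest without Smad4KO replicate 2.

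Of 116 named genes, all kept direction and side of the threshold with the averaging, 41 with genotype as a random block (75 lost the call), 87 with the minimum fold and 111 after median-of-ratios scaling. Signs turned for Arpc5l (-0.055 after median-of-ratios scaling, -0.020 after quantile normalization), Smad4 (0.054 without Smad4KO) and S100a6 (0.062 after quantile normalization, 0.014 with the fibroblast covariate, 0.22 without Klf5KO).

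Replicate numbers did not pair the libraries: correlations of same-numbered deviations were -0.149 to 0.116, 1 of 18 was over 0.1, and the own number correlated best in 15 of 36 cases. With the replicate block 6282 genes were higher and 1527 lower, 9633 differed among knockouts, and it changed the call of none of the 116 named genes.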

Other observations

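Among the 87 genes that passed with genotype as a block were several outside the lists described above, chosen here after their values were seen and belonging to no common list. Casp1, the protease of inflammasomes, was at 9.52, 9.63 and 7.55 TPM in the 3 WT libraries and at 38.8 to 48.9 TPM (median 44) in the knockouts (log2 fold change 2.18 ± 0.09 SE, limma adjusted p = 4.22e-08; genotype as block, adjusted p = 0.0074). Its neighbour Casp12 was at 11.9, 9.22 and 10.3 TPM in WT and 34.7 to 53.7 TPM (median 37.5) in the knockouts. Xdh, which makes uric acid, was at 36.9, 39.1 and 34.6 TPM in WT and 113 to 179 TPM (median 128) in the knockouts. Txnip, an inhibitor of glucose uptake and thioredoxin, was at 86.1, 82.4 and 88.3 TPM in WT and 162 to 241 TPM (median 209.7) in the knockouts. Il7, a lymphocyte cytokine, was at 0.914, 0.573 and 0.592 TPM in WT and 4.18 to 9.07 TPM (median 5.01) in the knockouts. For all 5 every knockout library lay above every WT library. On the lower side Trib2, a pseudokinase, was at 15.8, 13 and 17.4 TPM in WT and 2.37 to 4.09 TPM (median 3.599) in the knockouts, with no overlap.

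Nonclassical class I genes, also collected after values were seen, rose in 12 of 13 tested, 11 with all knockout libraries above WT, with a median log2 fold change of 1.66. Of all genes 46.6% rose and 18.8% had all knockout libraries above WT. H2-T23, the mouse counterpart of HLA-E, was at 168, 157 and 148 TPM in the 3 WT libraries and at 389.5 to 477 TPM (median 427) in the knockouts. Histone cluster genes, also collected after values were seen, went the other way: of 63 tested 37 fell and 1 rose, with a median of -0.82. All knockout libraries lay below WT for 21 of them. Of all genes 11.4% fell and 3.76% had all knockout libraries below WT. Most histone transcripts lack a poly(A) tail and copies are nearly identical, so their TPM can vary with the library preparation and with how reads are assigned, which was not tested.

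The share of genes with all 9 knockout libraries above WT differed by chromosome. Among 10335 genes with a mean of at least 5 TPM it was 21.4% in all, 33% on chromosome 12 (114 of 345), 30.3% on chromosome 3 (152 of 501) and 29.9% on chromosome 17 (159 of 532), where the MHC lies. It was 9.92% on chromosome 4 (62 of 625), 10.7% on chromosome 15 (45 of 421) and 11.4% on the X chromosome (31 of 272). The median log2 fold change on chromosome 4 was 0.06 in EgfrKO, 0.34 in Klf5KO and -0.11 in Smad4KO. Differences in gene copy number between the WT cells and the knockouts were not tested.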
